A study of Mus musculus with 7 samples.

Results

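The peaks described here are stretches of DNA that CEBPB occupied in untreated dermal fibroblasts, that overlapped no peak of thapsigargin-treated cells, and whose CpGs were neither free of methylation nor mostly methylated. They were selected on measured values: a peak of the untreated CEBPB list was taken when it shared no base with a CEBPB peak or an ATF4 peak of treated cells and when the mean methylation of its CpG cytosines in untreated cells lay over 10% and under 50%. Of the 7317 untreated CEBPB peaks, 5710 overlapped no treated peak, and 2964 of these met the methylation limits. The other untreated-only peaks comprised 1980 at 50% or more, 518 at 10% or less and 248 without a methylation value. The remaining 1607 untreated peaks overlapped a treated peak.

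The study examined primary dermal fibroblasts of female FVB/N mice after 8 days in culture, with 7 libraries in 6 groups. The treated groups had been exposed for 3 h to thapsigargin, a plant compound that stops calcium from being pumped into the endoplasmic reticulum and so induces the stress factor ATF4. They comprised CEBPB chromatin immunoprecipitation, ATF4 chromatin immunoprecipitation and RNA, with 1 library each. The untreated groups comprised CEBPB chromatin immunoprecipitation and RNA, with 1 library each, and whole-genome bisulfite sequencing with 2 libraries. The bisulfite values were held as 1 set of percentages without a library number, taken as pooled. No label gives the number of mice behind a library, and no group carried a transgene or deletion. The lists held 7861 CEBPB peaks and 10109 ATF4 peaks of treated cells.

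CEBPB is a bZIP transcription factor that binds DNA as a dimer and has roles in inflammation, wound repair and fat cell formation. It pairs with itself and with other C/EBP proteins on sites built from the half-site GCAA, and with ATF4 on composite sites such as TGATGCAA. Bisulfite sequencing reads the methylation of cytosines in CpG dinucleotides, which is high over most of a mammalian genome and low at active gene starts. Intermediate levels have been described at distal regulatory elements that transcription factors occupy.

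All 7 fibroblast markers, among them the collagen genes Col1a1, Col1a2 and Col3a1, lay between FPKM 132 and 6473 in the untreated RNA library, while 0 of 3 endothelial markers reached FPKM 1. FPKM is a count of sequenced fragments divided by transcript length and by library size. The summed level of the fibroblast markers was 2824 in treated and 14347 in untreated cells, of which Col1a1 alone made up 884 and 6473. For 5 macrophage markers it was 1180 and 1016, of which Lyz2 alone made up 951 and 880. For 5 keratinocyte markers it was 1.24 and 22.9, and for 3 adipocyte markers 1.52 and 12.9. For 4 muscle and pericyte markers it was 511 and 1158, of which Acta2 alone made up 475 and 1124. For 4 melanocyte and Schwann cell markers it was 4.44 and 33.7. Genes of a set could differ in direction: Cd14 stood at 111 in treated and 14.8 in untreated cells, and Cd68 at 71.6 and 86.4. Against the sums of their sets, the fibroblast marker Thy1 stood at 168 and 132, and the pericyte marker Cspg4 at 17.4 and 5.82. The part that other cell types had in the peaks was not tested, and in bulk RNA fewer cells of a type cannot be told apart from less RNA per cell. Each group had 1 library or pooled values, so differences between treated and untreated cells are without a replicate check. Methylation was given without read coverage, so its depth is unknown. Intervals below are 95% Wilson intervals of shares and 95% Newcombe intervals of differences between shares, and cover counting error only.

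The sequences around the sites that carry the results are shown for a few peaks. They are the plus strand of the C57BL/6J reference, build mm9, and not of FVB/N. Capitals mark C/EBP sites (TTGCNNAA), composite sites (TGATGCAA, TGACGCAA), cAMP response elements (TGACGTCA) and AP-1 sites (TGANTCA), read on both strands. The first set holds the C/EBP palindrome TTGCGCAA, whose centre is a CpG, in 4 of the 5 highest-scoring peaks that have it and in the peaks nearest to Peg3 and Ids. Their positions are chr1:59649957-59650036 (intron of Gm973), chr2:115680463-115680542 (near Meis2), chr10:60242474-60242553 (coding exon of Unc5b, with the start of Slc29a3 nearest), chr5:12436846-12436925 (intron of Sema3d), chr7:6702089-6702168 (near Peg3) and chrX:67618233-67618312 (start of Ids).
Gm973: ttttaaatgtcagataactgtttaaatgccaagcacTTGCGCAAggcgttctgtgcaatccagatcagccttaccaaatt
Meis2: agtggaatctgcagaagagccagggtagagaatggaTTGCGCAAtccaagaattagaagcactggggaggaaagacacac
Unc5b: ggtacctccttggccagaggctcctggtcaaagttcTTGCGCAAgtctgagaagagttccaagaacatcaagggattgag
Sema3d: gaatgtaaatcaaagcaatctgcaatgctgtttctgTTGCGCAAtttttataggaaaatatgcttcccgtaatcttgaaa
Peg3: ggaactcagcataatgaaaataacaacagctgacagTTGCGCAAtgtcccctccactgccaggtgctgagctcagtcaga
Ids: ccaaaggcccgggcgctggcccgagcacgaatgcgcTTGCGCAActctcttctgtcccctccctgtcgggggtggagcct

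The second set shows common forms of the site, which carry no CpG, and sites with other motifs. The peaks nearest to Clvs1 (chr4:9037672-9037751) and Gbp2 (chr3:142283259-142283338) had the highest scores. Psen2 (chr1:182193634-182193713) and Nfil3 (chr13:53080928-53081007) pair a C/EBP site with an AP-1 site. Olfm3 (chr3:114916567-114916646) and Fgfr2 (chr7:137432761-137432840) hold TTGCGAAA. Dync1li1 (chr9:114599464-114599543) holds the composite site with a CpG. Ksr1 (chr11:78894917-78894996) and Aqp9 (chr9:71014961-71015040) hold cAMP response elements and were chosen after their values were seen.
Clvs1: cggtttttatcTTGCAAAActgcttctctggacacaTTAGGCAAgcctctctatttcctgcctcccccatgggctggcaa
Gbp2: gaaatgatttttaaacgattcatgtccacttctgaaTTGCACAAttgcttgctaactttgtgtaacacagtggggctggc
Psen2: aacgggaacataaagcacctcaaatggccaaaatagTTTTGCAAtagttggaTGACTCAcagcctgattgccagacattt
Nfil3: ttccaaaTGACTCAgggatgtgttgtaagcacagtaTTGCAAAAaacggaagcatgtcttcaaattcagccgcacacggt
Olfm3: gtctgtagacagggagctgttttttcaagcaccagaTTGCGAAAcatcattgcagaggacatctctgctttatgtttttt
Fgfr2: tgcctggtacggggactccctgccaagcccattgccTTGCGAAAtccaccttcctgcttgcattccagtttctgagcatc
Dync1li1: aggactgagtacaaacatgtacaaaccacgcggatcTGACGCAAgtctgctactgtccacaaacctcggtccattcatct
Ksr1: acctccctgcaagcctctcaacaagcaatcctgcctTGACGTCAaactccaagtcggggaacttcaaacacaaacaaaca
Aqp9: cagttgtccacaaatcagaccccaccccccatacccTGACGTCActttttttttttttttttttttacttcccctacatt

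The first question was how methylation varied within and around these peaks. Selection for a mean under 50% in a genome with higher levels largely sets that they lie below their surroundings, so the values against the flanks are a description. Their median width was 463 bp with a median of 5 CpGs, and their mean methylation had a median of 33.3% (quartiles 24.2 and 41.6%). Methylation was higher away from the centre: CpGs in the 200 bp at the peak centre averaged 27.3%, and CpGs 500 to 2000 bp from the centre averaged 62.7%. By peak, the level 5 to 50 kb away had a median of 70.8%. Of 2934 peaks with at least 4 measured cytosines in each flank, 2687 (91.6%) lay below both flanks, and 2415 (82.3%) had both flanks over 50%. Another 165 had a flank under 20%, and these lay a median of 1466 bp from a gene start.

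**Figure D1:**
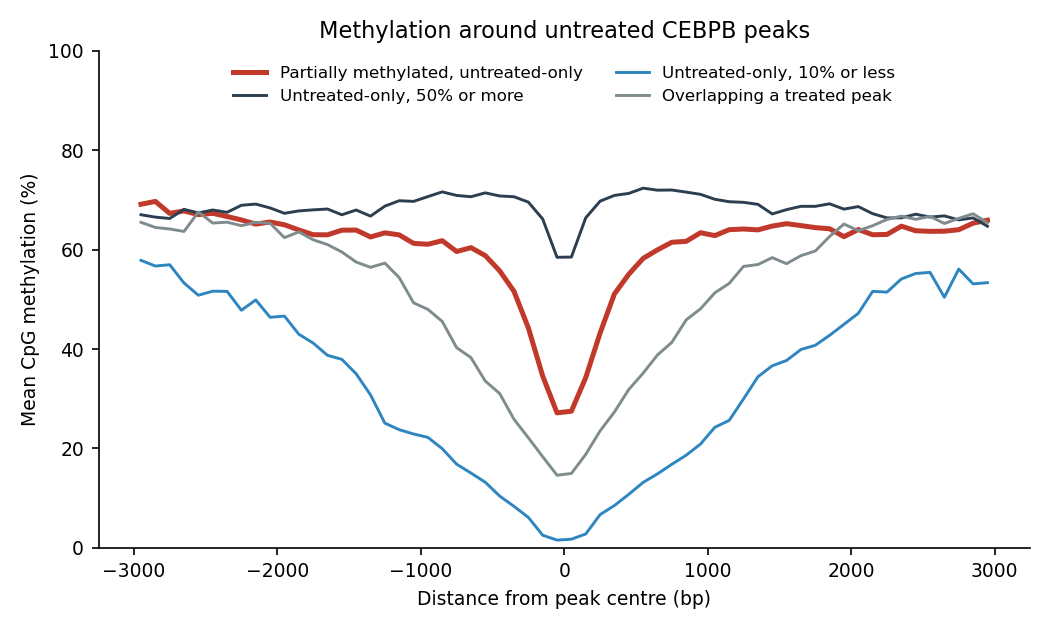
Mean CpG methylation of untreated cells (y axis, %) in 100-bp bins by distance from the peak centre (x axis, bp), for the partially methylated untreated-only peaks and the other classes of untreated CEBPB peaks. The means are over cytosines, so peaks with many CpGs weigh more. The dip of the partially methylated peaks has its lowest value, 27.2%, in the bin just left of the centre, where peaks overlapping a treated peak have a wider and deeper trough, at 14.6%. As the mean of per-peak means, that bin has 27.2% and 22.8%.

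Most cytosines of the peaks were themselves intermediate, which is a description, since the same cytosines selected the peaks. Of the 32399 measured cytosines, 68.0% lay between 10% and 50%, against 24.8% in untreated-only peaks at 50% or more, 7.43% in those at 10% or less and 27.5% in peaks overlapping a treated peak. Among the 1905 peaks with 8 or more cytosines, every cytosine lay over 0% and under 100% in 1131, and 166 held both a cytosine at 0% and one over 80%. The 2 strands of a CpG gave similar values: over 15750 CpGs with both strands, which share their libraries, Pearson's r was 0.749 and Spearman's rho 0.744, and 87 CpGs differed by 50 points or more. The difference between the strand means of a peak had an SD of 10.1 points over 2958 peaks, which corresponds to an error of 5.07 points for a peak mean. That error can carry a peak across a limit: 2731 peaks lay within the limits on the plus strand alone and 2705 on the minus strand alone.

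The peaks filled the whole range, with 471 at 10 to 20%, 733 at 20 to 30%, 865 at 30 to 40% and 895 at 40 to 50%. Just inside the limits were peaks near Esrp2 at 10.04% and Dync1li1 at 10.06%, and peaks in introns of Nfkb1 at 49.94% and Pkig at 49.93%. Just outside were 6 untreated-only peaks at exactly 10% and 9 at exactly 50%. Those at 10% included 1 in Dock10 and 1 nearest to Pax3, though 322489 bp from its start. Those at 50% included 1 in Adam17 and 1 nearest to Flrt2, 60937 bp from its start. The authors' scores, which rank peaks within the list, ran from 50.03 to 560 with a median of 81.6, and showed little relation to methylation across peaks (Spearman's rho −0.052, Pearson's r −0.055, n = 2964 peaks of 1 library, within the range that the selection left). The highest score, 560, belonged to an intergenic peak at chr4:9037521-9037918, 159 kb from the start of Clvs1, at 34.5% methylation. The next, 547, lay 284 bp upstream of Gbp2, which encodes an interferon-induced GTPase, at chr3:142282982-142283582, with 33.3% from only 2 CpGs. An intron of Phldb2 held the third, with a score of 517 and 40.1% methylation. The other 7 of the 10 highest-scoring peaks were nearest to Rspo3, Med13l, Trub2, Rgs3, Psen2, Olfm3 and Mapk14, and ran from 12.8% at Mapk14 to 40.8% at Rgs3. Of these 10 peaks, the ones at Gbp2, Psen2 and Mapk14 lay within 1 kb of a gene start.

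The second comparison asked where the peaks lay. Most peaks were intergenic or intronic. By their centre, or by any base within 1 kb of a start of a protein-coding transcript, 52.2% were intergenic, 40% intronic and 196 (6.61%, 5.77 to 7.56) at a gene start. That share at gene starts was above the 3.79% of untreated-only peaks at 50% or more (difference 2.82 points, 1.57 to 4.04) and below the 43.8% of those at 10% or less (difference −37.2, −41.6 to −32.9) and the 20.1% of peaks overlapping a treated peak (difference −13.5, −15.7 to −11.4). The median distance to a gene start was 31361.5 bp, against 28296.5 bp for untreated-only peaks at 50% or more, 1976.5 bp for those at 10% or less and 19475 bp for peaks overlapping a treated peak. In all, 9 (0.304%) were GC-rich and CpG-dense, with a GC content of at least 50% and a ratio of observed to expected CpGs of at least 0.6, against 0.101% of untreated-only peaks at 50% or more (difference interval −0.10 to 0.48 points), 18.9% of those at 10% or less and 12.6% of peaks overlapping a treated peak.

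Few had a treated peak nearby, although the rule removed only overlaps. A CEBPB peak of treated cells lay within 500 bp of 22 (0.742%) and within 5 kb of 174 (5.87%), and the median gap was 74018 bp. The shares within 5 kb were 4.60% for untreated-only peaks at 50% or more and 6.56% for those at 10% or less, and both difference intervals included 0. An ATF4 peak lay within 5 kb of 184 (6.21%), against 26.6% of untreated-only peaks at 10% or less (difference −20.4 points, −24.5 to −16.7) and 18.7% of peaks overlapping a treated peak (difference −12.5, −14.7 to −10.5). The interval of the difference from untreated-only peaks at 50% or more, of which 5.15% had one, ran from −0.28 to 2.34 points. Whether CEBPB signal at these places was lower in treated cells was not measured here, since the lists give peaks only and each came from 1 library.

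Gene starts on the X chromosome stood apart from those on autosomes. Female cells silence an X chromosome, and CpG-rich gene starts on it are known to be methylated. Not all X gene-start peaks here were CpG-rich. Their ratio of observed to expected CpGs ran from 0.14 (A630033H20Rik) to 1.10 (Mid1). Of 15 untreated CEBPB peaks at X gene starts, 14 (93.3%, 70.2 to 98.8) lay over 10% and under 50%, against 232 of 806 at autosomal gene starts (28.8%, 25.8 to 32.0), a difference of 64.5 points (41.2 to 70.8). The median methylation was 26.0% on the X and 3.57% on the autosomes. Of the 14, 11 were untreated-only and so belonged to the partially methylated peaks, and 3, at Cask, BC065397 and a second peak of Mid1, overlapped a treated peak. Among the 38 partially methylated peaks of the X, 11 (28.9%) were thus at gene starts, against 185 of 2926 on autosomes (6.32%), a difference of 22.6 points (10.6 to 38.5).

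The 11 X peaks lay between 13.2% and 33.9%. The peak of Mid1, a microtubule-associated ubiquitin ligase, stood at 15.1% over 40 cytosines. That of Ftsj1, an RNA methyltransferase, stood at 19.5% over 56. Ogt, the enzyme that adds N-acetylglucosamine to nuclear proteins, stood at 22.3% over 38, and Flna, the actin crosslinker filamin A, at 24.4% over 42. The peak with the most CpGs of all, 41, lay 52 bp upstream of Ids, a lysosomal sulfatase, at 24.6%. The others were at 1110012L19Rik (44 cytosines), Gla (12), A630033H20Rik (6), Emd (22), Apool (34) and Ddx26b (8). The 1 X gene-start peak outside the range was that of Gm14597, at 66.0% over 7 cytosines. The values do not separate the alleles, so how far the X chromosomes of a cell differ was not tested.

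**Figure D2:**
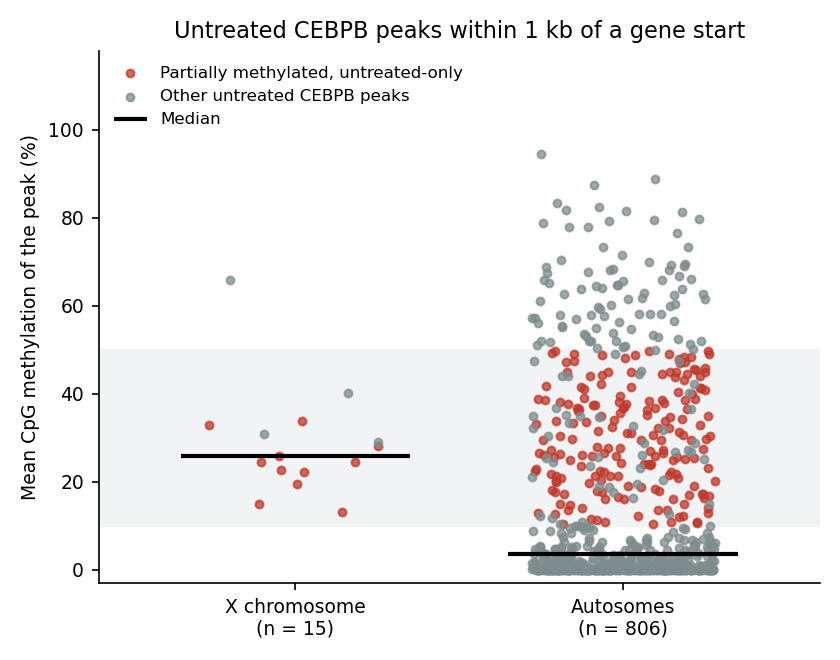
Mean CpG methylation (y axis, %) of each untreated CEBPB peak within 1 kb of a gene start, on the X chromosome (15 peaks) and on the autosomes (806 peaks), with partially methylated untreated-only peaks in red, the selection limits shaded and medians as bars. The X median lies inside the shaded range at 26.0%, and the autosomal median at 3.57%.

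The third comparison asked which binding sites the peaks held. The C/EBP pattern TTGCNNAA was in 1950 of the 2964 peaks (65.8%), against 18.9% of 5928 windows of the same lengths placed 2000 bp to either side (difference 46.9 points, 44.9 to 48.8). Of its 2588 occurrences, 1341 (51.8%) lay within 50 bp of the peak centre. The commonest form was TTGCACAA, shown above at Gbp2, with 470 sites (18.2%), followed by TTGCAAAA with 359 and TTGCTCAA with 337. TTGCACAA, read on both strands, was also the 8-mer with the largest excess over flanking windows, in 13.9% of the central 200 bp against 0.658% of windows. The share of peaks with TTGCNNAA was 56.4% in the 741 peaks with the lowest scores, 59.6% and 65.6% in the next groups of 741 and 81.5% in the 741 with the highest. Higher-scoring peaks were wider (Spearman's rho of score and width 0.488 over these peaks), with median widths of 393, 440, 488 and 544 bp. In the central 200 bp alone, a search added after the data were seen, the shares were 50.5%, 53.0%, 59.2% and 69.9%.

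Sites of some other factors were also more frequent than in the flanks. The AP-1 site TGANTCA, which FOS and JUN dimers bind, was in 914 peaks (30.8%) against 14.5% of windows (difference 16.3 points, 14.5 to 18.2). The composite site TGATGCAA was in 177 (5.97%) against 1.23%. The TEAD site ACATTCC was in 12.4% against 7.10%, and the RUNX site TGTGGTT in 15.2% against 11.4%. For the cAMP response element TGACGTCA, in 13 peaks (0.439%) against 0.270% of windows, the interval of the difference ran from −0.08 to 0.50 points. None of the C/EBP, composite TGATGCAA and AP-1 patterns was found in 620 peaks (20.9%), whose median score was 70.2, against 88.4 for peaks with TTGCNNAA. A site without a match to these letters may still bind the factor.

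Set against the other classes of untreated CEBPB peaks compared here, the partially methylated peaks were poor in the C/EBP palindrome with a central CpG. They were rich in AP-1 sites against the other untreated-only classes, but not against peaks overlapping a treated peak. The palindrome TTGCGCAA was in 37 (1.25%, 0.907 to 1.72), against 5.0% of untreated-only peaks at 50% or more (difference −3.75 points, −4.86 to −2.76), 3.86% of those at 10% or less (−2.61, −4.67 to −1.19) and 9.40% of peaks overlapping a treated peak (−8.15, −9.71 to −6.74). It was still more frequent than in the flanking windows, where 0.0843% held it. The AP-1 site was in 30.8%, against 22.5% of untreated-only peaks at 50% or more (difference 8.36 points, 5.86 to 10.8) and 24.5% of those at 10% or less (6.32, 2.11 to 10.2), while the interval against peaks overlapping a treated peak, with 31.8%, ran from −3.80 to 1.84 points. The composite site TGATGCAA was in 5.97%, against 5.91% of untreated-only peaks at 50% or more, with an interval of −1.32 to 1.38 points, and 14.7% of peaks overlapping a treated peak (difference −8.78, −10.8 to −6.89). TTGCNNAA itself was in 65.8%, against 72.9% of untreated-only peaks at 50% or more (difference −7.14, −9.72 to −4.52). Peaks overlapping a treated peak had higher scores (median 131, against 81.6 for the partially methylated peaks). They were also wider (516 against 463 bp) and held more CpGs (7 against 5). The part of these differences in the motif shares was not tested.

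The CpG of a motif enters the mean that selected the peaks. With the classes formed again after leaving out CpGs inside C/EBP sites, an alternative chosen after the data were seen, TTGCGCAA was in 42 of 2989 partially methylated peaks (1.41%), against 89 of 1934 untreated-only peaks at 50% or more (4.60%), a difference of −3.20 points (−4.29 to −2.22).

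**Figure D3:**
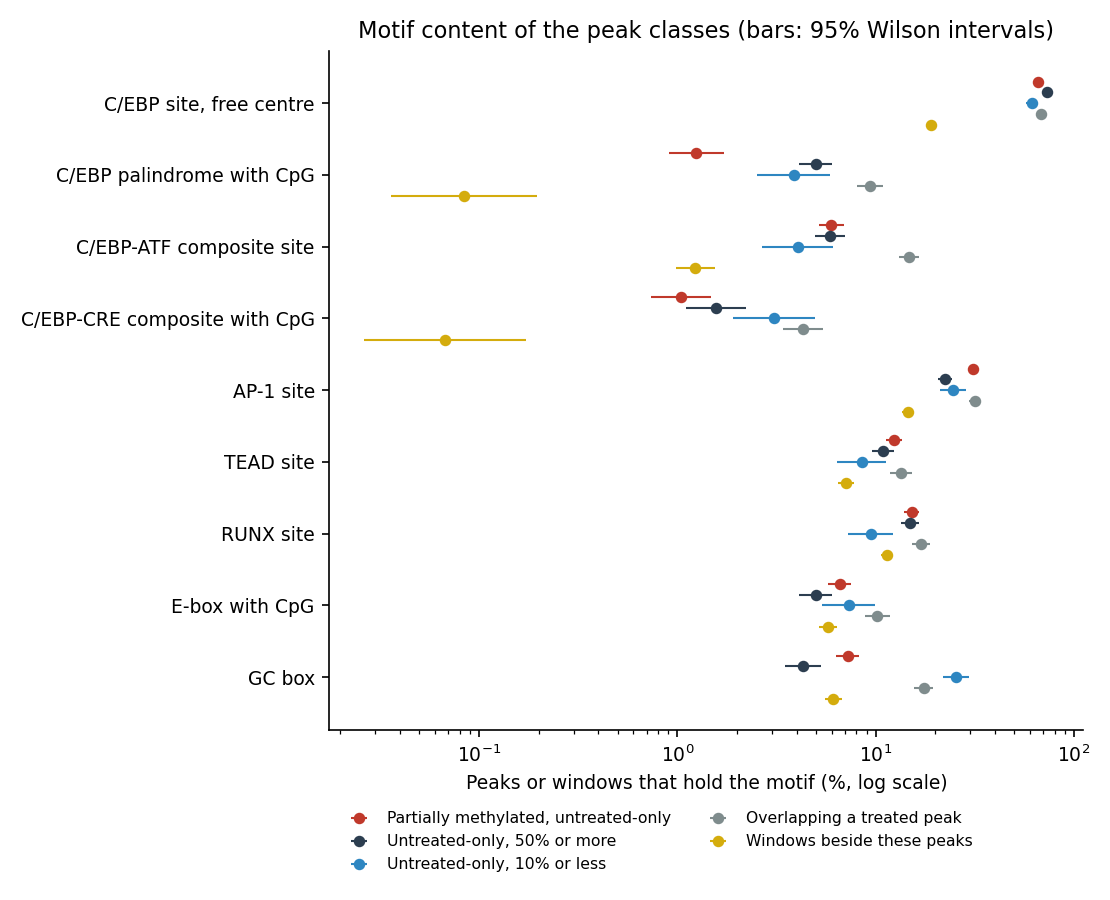
Share of peaks that hold each motif (x axis, %, log scale) in the partially methylated untreated-only peaks, the other classes of untreated CEBPB peaks and windows beside the partially methylated peaks, with 95% Wilson intervals as bars. The palindrome with a CpG stands at 1.25% in the partially methylated peaks, between the windows and every other class, and the AP-1 site at 30.8%.

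The fourth comparison set the methylation of CpGs inside the sites against the other CpGs of the same peaks. CpGs in C/EBP sites were more methylated than their surroundings, and CpGs in cAMP response elements and E-boxes were less. In the 37 peaks with TTGCGCAA, the motif CpG ran from 16.5% to 87.5% with a median of 50%, against a median of 29.2% for the other CpGs of those peaks. It was higher in 34 peaks, equal in the peak nearest A430107O13Rik and lower in 2, nearest Ncoa1 (40% against 41%) and Ids (16.5% against 24.8%). The motif CpG was also above the mean of other CpGs within 100 bp in 30 of 34 peaks. The largest motif value, 87.5%, was in the peak nearest Usp24, where 15 other CpGs averaged 43.0%. In the peak shown near Peg3, a paternally expressed imprinted gene, the motif CpG was at 74.5% and 8 others averaged 46.2%. Its peak mean of 49.3% was close to the upper limit. In the peak nearest Hnrpdl the motif CpG stood at 62.0%, and 6 others averaged 5.67%.

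The C/EBP sites TTGCGAAA and TTGCGTAA and the composite site TGACGCAA gave the same order, and the composite variant CGATGCAA did not. In 101 peaks with TTGCGAAA the motif CpG had a median of 48.5%, against 30.6% for other CpGs, and was higher in 83 and lower in 17. In the peak shown above as Olfm3, which lay 132708 bp from that gene's start, it was at 55.5%. In the Fgfr2 peak it was at 35.5%, beside another CpG at 11.5% in the printed stretch. In 52 peaks with TTGCGTAA the median was 53.8%, against 33.2%, and the motif CpG was higher in 44. For the composite site TGACGCAA the median was 36.5%, against 29.8%, in 29 peaks, and the motif CpG was higher in 21. For CGATGCAA it was higher in 5 and lower in 6 of 11 peaks. The excess of the palindrome was not confined to these peaks: in untreated-only peaks at 50% or more the motif CpG was higher in 90 of 97 peaks, with a median of 87.0% against 66.1%, and in peaks overlapping a treated peak in 94 of 150, with 39.5% against 28.4%. In untreated-only peaks at 10% or less it was higher in 8 and lower in 8 of 20. For the composite site TGACGCAA the order changed with the class. Its CpG was higher in 19 of 31 untreated-only peaks at 50% or more. It was lower in 47 of 69 peaks overlapping a treated peak and in 10 of 16 untreated-only peaks at 10% or less.

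CpGs in cAMP response elements and E-boxes went the other way. In the 12 peaks with values for a cAMP response element and for other CpGs, the motif CpG ran from 3.50% to 27.0% with a median of 19.8%, against 26.1%. It was lower in 11 and equal in the peak nearest BC034090, and against other CpGs within 100 bp it was lower in 9 of 11. In the peak shown at the start of Aqp9, which encodes a water and glycerol channel, it was at 3.50% and 5 others averaged 22.1%. The E-box CACGTG, bound by bHLH factors, had a median of 25% against 32.9% over 191 peaks, and was lower in 136. In untreated-only peaks at 50% or more the E-box CpG was likewise lower in 62 of 95, with 56.5% against 62.9%. The GC box GGGCGG had a median of 34.5% against 29.7% over 213 peaks, with 123 higher and 90 lower, and was above the CpGs within 100 bp in 150 of 201. An excess was thus not confined to C/EBP sites. The ETS site ACCGGAAG had a median of 38.5% against 31.5% over 19 peaks, with 13 higher and 5 lower. All peaks without a motif CpG value or another CpG were left out. The depth behind a single CpG is unknown, and these are values of 1 pooled methylome.

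**Figure D4:**
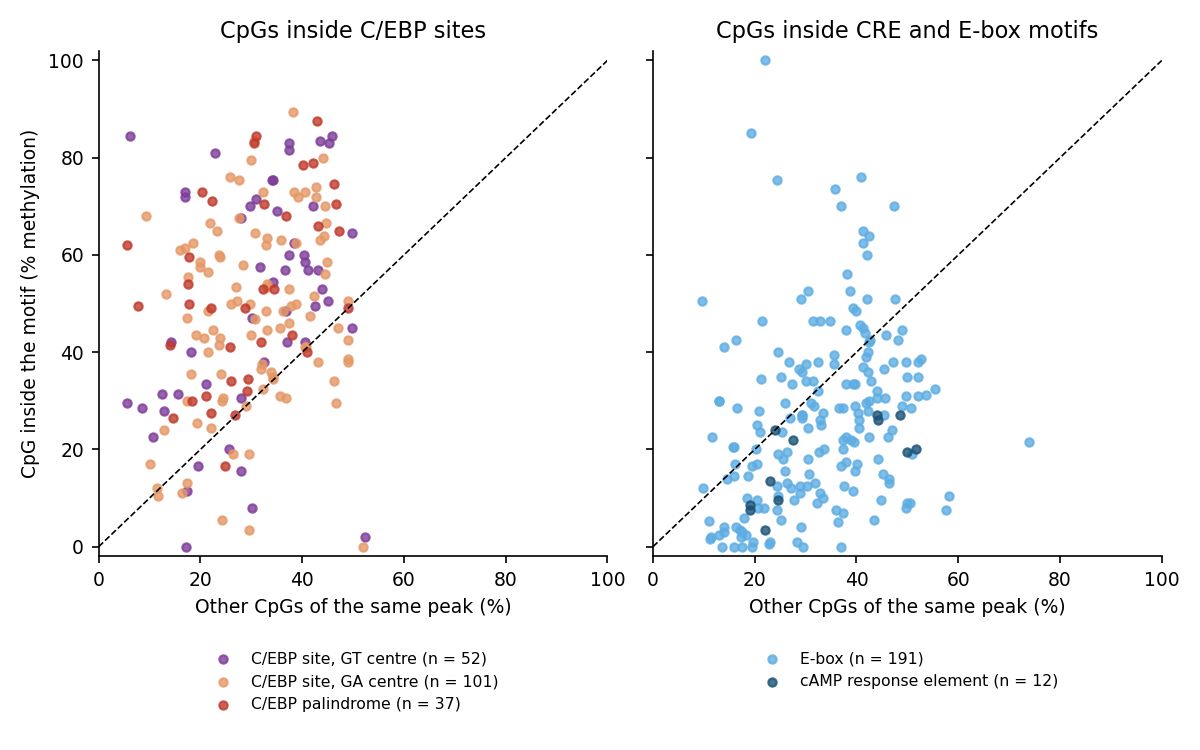
Methylation of the CpG inside a motif (y axis, %) against the mean of the other CpGs of the same partially methylated peak (x axis, %), for C/EBP sites with a CpG (left) and for cAMP response elements and E-boxes (right), with equality dashed and each point a peak. Of the 37 palindrome peaks 34 lie above the line, and of the 12 response element peaks none does.

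Around C/EBP sites as a whole, methylation was lowest a short way from the site. In 1421 peaks with a single TTGCNNAA, cytosines within 20 bp of its middle averaged 30.6%, those at 20 to 50 bp 25.6%, those at 100 to 150 bp 32.2% and those at 500 to 1000 bp 58.1%. The span within 20 bp takes in the site itself, and the part of CpGs inside the site was not separated. Around the AP-1 site in 763 peaks the same bins gave 25.2%, 24.7%, 33.7% and 64.1%.

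The last comparison asked which genes lay near the peaks and what their RNA was. A peak was linked to the gene with the nearest start within 50 kb of its centre, which says nothing of regulation. This linked 1804 peaks to 1499 genes, of which 1433 had FPKM values. In untreated cells 1093 of these (76.3%, 74.0 to 78.4) reached FPKM 1, against 57.3% of 20024 genes. For genes linked to untreated-only peaks at 50% or more the share was 78.9%, and for genes linked to peaks overlapping a treated peak 85.5%. Rbms1, which encodes an RNA-binding protein, and Susd1 were each linked to 6 peaks and Galnt2, an enzyme of mucin-type glycosylation, to 5. Rbms1 stood at FPKM 19.1 in treated and 52.0 in untreated cells, Galnt2 at 51.5 and 89.4, and Susd1 was low in both, at 0.294 and 0.535.

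After thapsigargin more linked genes were lower than higher as the values were deposited, and the same held for all genes. Relative to the median of all genes, more were higher than lower, both among linked genes and among all genes. No test of linked against other genes was made. Of 1120 linked genes that reached FPKM 1 in treated or untreated cells, 85 (7.59%) were higher by 1 or more on the log2(FPKM + 1) scale, which understates changes of low genes, against 5.58% of all 11743, and 310 (27.7%) were lower by 1 or more, against 28.5%. The median log2 change was −0.49 for the linked genes and −0.53 for all. Relative to that shift of all genes, 180 linked genes (16.1%) were higher and 137 (12.2%) lower, against 13.0% and 12.6% of all. Across all 11743 genes the change also went with exon junctions per kb of transcript (Spearman's rho −0.393 over genes, which share the libraries), whose part in the changes below was not tested.

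The share of genes near the peaks differed between gene lists. The lists were drawn up with earlier results of these data known, so their shares are descriptions. A gene was the nearest start to a partially methylated peak for 7.16% of all genes with FPKM values and for 9.53% of those at FPKM 1 or more in untreated cells. On the inflammatory and acute-phase list it was 13 of 30 (43.3%), on the matrix and collagen list 16 of 43 (37.2%), on the growth factor and receptor list 15 of 42 (35.7%) and on the list of contractile genes and YAP targets 8 of 24 (33.3%). The next were 8 of 39 bZIP genes (20.5%), 3 of 15 macrophage and leukocyte markers (20%), 7 of 36 dermal mesenchyme regulators (19.4%), 3 of 21 adipocyte genes (14.3%), 4 of 30 genes of the integrated stress and unfolded protein response (13.3%) and 2 of 18 DNA methylation factors (11.1%). Below 9.53% were 2 of 28 imprinted genes (7.14%) and 1 of 17 keratinocyte markers (5.88%). The interval included 9.53% for macrophage and leukocyte markers (7.05 to 45.2) and adipocyte genes (4.98 to 34.6). It also did for the stress response (5.31 to 29.7), DNA methylation factors (3.10 to 32.8), imprinted genes (1.98 to 22.6) and keratinocyte markers (1.05 to 27.0). List shares are over measured genes, expressed or not. The less numerous untreated-only peaks at 50% or more were nearest to 5.31% of all genes and 7.32% of those at FPKM 1 or more, and to 13.3%, 23.3%, 21.4% and 25% of the first 4 lists. The spacing of genes also sets how many peaks fall nearest to one, and its part was not tested.

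**Figure D5:**
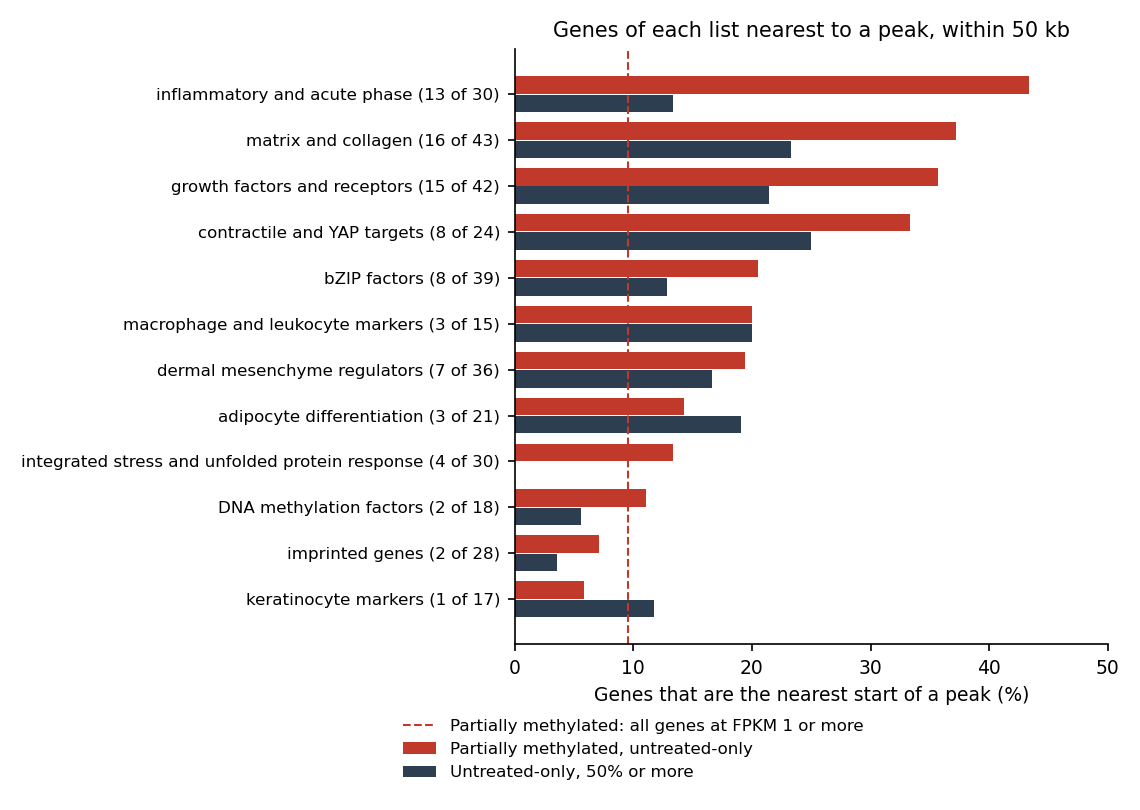
Share of the measured genes of each list (x axis, %) that are the nearest start, within 50 kb, of a partially methylated untreated-only peak (red) or of an untreated-only peak at 50% or more (dark), with counts for the partially methylated peaks beside each list name. The dashed line marks 9.53%, the share of all genes at FPKM 1 or more that are nearest to a partially methylated peak. List shares are over measured genes, expressed or not, and the shorter lists have wide intervals, given in the text.

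Of the 13 inflammatory genes near the peaks, 7 were higher by 1 or more in the treated library and 0 lower, with a median log2 change of 1.59, beside 1.65 for all expressed genes of that list. Relative to the median of all genes, 11 were higher and 0 lower. For these counts and those of the lists below, the shares over all genes were 5.58% higher and 28.5% lower. Relative to the median they were 13.0% and 12.6%. Nfkbia, the inhibitor of NF-kB, stood at FPKM 114 in treated and 16.2 in untreated cells, and its higher-scoring peak, chr12:56574855-56575269, at 31.3%. Socs3, an inhibitor of cytokine signalling, stood at FPKM 79.2 and 14.4, with a peak at 18.4% over 11 CpGs. Il1rl1, the receptor of interleukin 33, stood at FPKM 158 in treated and 13.9 in untreated cells, with a peak 460 bp from its start at 37.8%. Saa3, an acute-phase apolipoprotein, stood at 98 and 30.4, with a peak at 43.2%. The chemokine gene Cxcl5 stood at 105 and 34.3. Its higher-scoring peak, at 28.7%, had only 2 CpGs, with 13.5% on one strand and 59.0% on the other. Complement gene C3 stood at 1.44 and 1.87.

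Of the 16 matrix genes near the peaks, 0 were higher by 1 or more and 11 lower, with a median log2 change of −1.62, beside −1.59 for the whole list. Relative to the median of all genes, 0 were higher and 8 lower. Col1a1 stood at FPKM 884 in treated and 6473 in untreated cells, and its peak, chr11:94774619-94775077, lay 22690 bp from the start at 32.5%. Col3a1 stood at 562 and 3000.4, with a peak at 24.4%. Adamts2, which trims procollagen, had the highest-scoring peak of the list, at chr11:50455930-50456586 with a score of 337 and 40.6%, and FPKM 23.4 in treated and 136 in untreated cells. Fbln1, a fibulin of the extracellular matrix, had a peak in an intron at 47.6% over 18 CpGs, and FPKM 19.7 and 108. Thbs1, an adhesive glycoprotein, was at 1171 in treated and 880 in untreated cells, a log2 difference of 0.41.

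Of 8 contractile genes and YAP targets near the peaks, 1 was higher and 3 lower, and relative to the median of all genes 2 were higher and 2 lower. Their median log2 change was −0.38, beside −0.19 for all expressed genes of that list. Palld, an actin-associated protein, stood at FPKM 3.63 in treated and 34.7 in untreated cells, with an intronic peak at 45.5%, and Flna, named above among the X gene starts, at 65.5 and 222.

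Among the 15 growth factor and receptor genes, 1 was higher and 7 lower, of which Pdgfrb carried a failed estimate in the treated library. The 15 had a median log2 change of −0.88, beside −0.73 for all expressed genes of that list. Relative to the median of all genes, 2 were higher and 3 lower. Fgf7, a growth factor for epithelial cells, stood at FPKM 72.0 in treated and 18.4 in untreated cells, and its peak at 29.3%. Igf1r, the receptor of insulin-like growth factor 1, stood at 5.6 and 14.8, and its peak at 17.7%. Of 8 bZIP genes near the peaks, 7 reached FPKM 1 in treated or untreated cells. Of these 7, 1 was higher and 1 lower, or 3 and 0 relative to the median of all genes. Their median log2 change was 0.25, beside 0.46 for all expressed genes of that list. Maf, a transcription factor, was the lower one, at FPKM 13.4 in treated and 32.6 in untreated cells, with a peak at 38.5% over 2 CpGs. Nfil3, a transcriptional repressor, was the higher one, at FPKM 203 in treated and 24.2 in untreated cells. Its peak lay 4524 bp from the start at 34.7% over 12 CpGs, and a peak of treated cells lay 1811 bp from that peak. Of 4 genes of the integrated stress and unfolded protein response near the peaks, 2 were higher and 1 lower, or 2 and 0 relative to the median of all genes. Their median log2 change was 0.75, beside 1.46 for all expressed genes of that list. Xbp1, a transcription factor of the unfolded protein response, stood at 337 and 72.9, with a peak 18074 bp from the start at 40.4%. Ern1 was the lower one, at 1.30 and 3.96. Fibroblast regulators near the peaks included Klf4, at FPKM 38.6 in treated and 17.8 in untreated cells with a peak at 20.8%, and Nfix, at 7.12 and 83.4 with a peak at its start at 34.2%. Dnmt3l, a cofactor of DNA methyltransferases, had a peak 78 bp from its start at 24.1%, while its RNA was under FPKM 1 in both libraries. Gene examples beyond the 4 with the highest peak scores in each list, and peaks described for an extreme motif CpG, were chosen after their values were seen.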

How the data were processed

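Per the submitters' processing notes, the authors processed RNA reads with CASAVA 1.8.2 and Bowtie, immunoprecipitation reads with CASAVA 1.7, BWA and SAMtools, and bisulfite reads with CASAVA 1.8 and Novoalign, on mm9; the sources used here do not name a peak caller or control, although peak names begin with MACS. The authors deposited a score per peak, an FPKM value per gene and a percent methylation per cytosine without coverage. The methylation values carried no library number and were taken as pooled over both bisulfite libraries. Of 39547384 cytosine entries, 83035 marked as heterozygous were left out.

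The peaks and gene lists were chosen with earlier results of these data known. Named peaks were the 10 highest scores, the highest of each gene list, the 2 nearest each limit on either side, the 5 highest with TTGCGCAA and the 5 with another CpG motif, the highest X gene start and the peak with most CpGs; named genes were up to 4 per list by peak score. Not all are described, 1 gene and 1 sequence are not reported here, and exceptions are stated. Gene starts came from protein-coding GENCODE vM1 transcripts and sequences from the mm9 reference genome. Motifs were counted on both strands, checked on simulated data. Intervals used statsmodels 0.14.6. With 1 library or pooled values per group, no p-values were computed. Alternatives changed the methylation summary, overlap, cytosine number, score, distance and FPKM settings.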

Additional observations from a re-analysis of the deposited data

How the results depend on the processing

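The number of partially methylated peaks was 2964 and lay between 2493 and 2994 under 9 of 10 alternatives, of which 2 (reference CpGs only, C/EBP-site CpGs left out) were chosen after the data were seen; taking the higher-scoring 50% of the untreated list left 1418. Within 2.5 kb of a gene start lay 12.3% of the peaks. With the search limited to the central 200 bp, TTGCNNAA was in 58.2% and TGANTCA in 19.5%, as fewer bases were searched, and in the higher-scoring 50% of these peaks TTGCNNAA was in 73.5% and TTGCGCAA in 1.75%. As the mean of per-peak means, methylation was 27.95% at the centre and 69.1% in the flanks. At FPKM 5 or more, 55.9% of linked genes were expressed. Linked genes higher and lower after thapsigargin made up 9.73% and 34.9% with a pseudocount of 0.1, 16.1% and 12.2% after centring, and 5.93% and 21.6% with no filter, against 7.11% and 35.6%, 13.0% and 12.6%, and 3.27% and 16.7% of all genes; causes were not tested. In all, 30 alternatives of main results, the 9 counts above among them, left shares and means within their intervals and counts within 1.5 times. Among them were chromosome X left out (also chosen after the data were seen) and the excess of CpGs in TTGCGCAA (23.3 to 24.5 points, 24 as reported). For results outside the main ones, 22 alternatives moved and 46 did not. The mean excess of CpGs in TTGCGTAA was 19.7 points, and 12.5 points in the higher-scoring 50% of peaks. No replicate could be left out and no paired analysis was possible because each group had 1 library or pooled values.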
